A study of Mus musculus with 36 samples.

Results

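The unfolded protein response and the integrated stress response were described through 38 genes, a list drawn up for this work whose members were found by their gene symbol or its current synonym. Of the 38 genes, 36 had a probe on the array under such a name and 28 had a probe bright enough to be compared. The study took whole male embryos of the inbred mouse strain C57BL/6J at 9.5 days post coitum and measured their RNA on an Illumina bead array, which reads each probe as a fluorescence intensity. Mothers of the Control group drank water, mothers of the Ethanol group drank 10% (v/v) ethanol and mothers of the Nicotine group drank nicotine at 100 µg/ml, by their own choice, from day 0.5 to day 8.5. Each group held 12 embryos with 1 array each, 36 arrays in all, and all groups share the strain, the sex and the age. No label ties an embryo to a mother or a slide, so the embryos were treated as separate samples and p-values measure the spread between them. RNA came from the whole embryo, so fewer cells of a type and less RNA per cell cannot be told apart.

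Secreted and membrane proteins fold in the endoplasmic reticulum (ER). When unfolded proteins build up there, the sensors PERK (Eif2ak3), IRE1 (Ern1) and ATF6 raise the output of chaperones, folding enzymes and the machinery that returns misfolded proteins to the cytosol for degradation. PERK and its sister kinases, which sense amino acid shortage, haem shortage and viral RNA, also phosphorylate the initiation factor eIF2. That step slows most translation, while translation of ATF4 goes up, and ATF4 in turn switches on genes for amino acid supply, for feedback on eIF2 and, with CHOP (Ddit3), for cell death. In mid-gestation embryos these genes also run at a basal level, as growing tissues make and secrete protein.

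Several promoters of the members carry letters known as sites of these pathways, and 6 of them are shown because the relations between members described further on concern these genes or their classes. Sequences are the 250 bases before the RefSeq gene start in GRCm38.p6, which the sequence tables held for 34 of the 38 members, and every window was searched on both strands. The ER stress response element (ERSE), the site of ATF6 and XBP1, was searched as CCAAT, 9 bases of any kind and CCACG. Its shorter form ERSE-II was searched as ATTGG, 1 base of any kind and CCACG. The core of the CHOP and ATF4 element (CARE) was searched as TGATGNAA, and the core of the XBP1 element (UPRE) as TGACGTG. The windows are chr2:34771840-34772089 (plus strand) for Hspa5, chr10:86705445-86705694 (minus strand) for Hsp90b1, chr14:118937682-118937931 (plus strand) for Dnajc3, chr8:94386179-94386428 (plus strand) for Herpud1, chr6:7693210-7693459 (minus strand) for Asns and chr2:119350992-119351241 (plus strand) for Chac1. Capitals mark the matches, read 5′ to 3′ on the strand of the gene.
Hspa5: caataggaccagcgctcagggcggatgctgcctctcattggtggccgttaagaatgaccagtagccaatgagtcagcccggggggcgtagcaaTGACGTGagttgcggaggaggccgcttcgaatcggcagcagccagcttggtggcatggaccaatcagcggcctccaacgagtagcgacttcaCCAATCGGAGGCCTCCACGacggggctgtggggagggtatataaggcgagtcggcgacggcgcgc
Hsp90b1: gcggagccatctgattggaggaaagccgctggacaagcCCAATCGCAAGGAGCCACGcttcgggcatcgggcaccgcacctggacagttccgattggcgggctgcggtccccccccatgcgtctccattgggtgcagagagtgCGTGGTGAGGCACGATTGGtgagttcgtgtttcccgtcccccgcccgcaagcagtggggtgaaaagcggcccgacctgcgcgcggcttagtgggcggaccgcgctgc
Dnajc3: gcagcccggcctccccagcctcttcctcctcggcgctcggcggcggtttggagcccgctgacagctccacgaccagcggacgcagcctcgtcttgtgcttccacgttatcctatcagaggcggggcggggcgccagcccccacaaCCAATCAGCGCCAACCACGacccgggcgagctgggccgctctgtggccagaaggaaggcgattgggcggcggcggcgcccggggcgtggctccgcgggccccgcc
Herpud1: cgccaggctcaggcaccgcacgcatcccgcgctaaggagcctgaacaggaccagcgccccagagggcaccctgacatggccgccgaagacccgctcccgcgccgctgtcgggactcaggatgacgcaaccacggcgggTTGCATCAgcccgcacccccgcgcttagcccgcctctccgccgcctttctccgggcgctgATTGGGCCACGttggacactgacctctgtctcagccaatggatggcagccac
Asns: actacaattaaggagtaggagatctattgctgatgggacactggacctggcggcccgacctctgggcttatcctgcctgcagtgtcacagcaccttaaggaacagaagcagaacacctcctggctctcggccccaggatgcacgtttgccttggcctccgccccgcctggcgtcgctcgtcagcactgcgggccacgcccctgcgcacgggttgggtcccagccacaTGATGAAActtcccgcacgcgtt
Chac1: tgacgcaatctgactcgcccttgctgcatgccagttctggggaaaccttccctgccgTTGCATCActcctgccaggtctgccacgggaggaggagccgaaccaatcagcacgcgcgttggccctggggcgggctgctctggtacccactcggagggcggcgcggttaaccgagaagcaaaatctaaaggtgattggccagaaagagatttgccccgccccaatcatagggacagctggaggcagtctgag

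The ERSE stood in 8 of the 34 windows (Hspa5, Hsp90b1, Dnajc3, Calr, Canx, Pdia6, Creld2 and Syvn1) and in 37 of all 32851 windows searched, or 0.113%. Hspa5, the chaperone BiP, held it at -65 to -47, counted from the gene start, and also held the UPRE core, which stood in 1.65% of all windows. Hsp90b1, the chaperone GRP94, held the ERSE on each strand, with the matches not overlapping. Herpud1, a scaffold of the degradation machinery, held the ERSE-II, found in 10 windows in all (0.0304%), and a CARE core. The CARE core stood in 6 members (Asns, Chac1, Aars, Gars, Atf3 and Herpud1) and in 3.45% of all windows. In Asns it lay at -23 to -16 and in Chac1 at -193 to -186. The windows of Ddit3, Trib3, Ppp1r15a, Xbp1, Atf4 and Dnajb9 held none of the 4 patterns, which says only that these letters are not in this stretch.

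Of the 38 members, 8 had a probe that did not pass the filter, which asked for an intensity of 32 on at least 12 of the 36 arrays. They were Eif2ak3 and Atf6, which encode the sensors PERK and ATF6, Canx (calnexin), Ero1l (the oxidase that drives disulfide formation), Manf (a secreted ER protein), Edem1 (a lectin of the degradation pathway), Psph (the last enzyme of serine synthesis) and Slc3a2 (the heavy chain of amino acid exchangers). Edem1 lay just outside, with 10 arrays at the limit and a mean intensity of 27.5, and Slc3a2 had 2 arrays and a mean of 17.2. Just inside were Ern1 with 19 arrays and a mean of 44.2, Chac1 with 25 arrays and a mean of 37.4, and Atf3 with 33 arrays. No probe was named for Dnajb11 or Slc7a5. The 28 kept members comprised 5 of 7 sensors and transcription factors, 11 of 15 chaperones and folding enzymes, 3 of 4 degradation genes, all 4 feedback and stress effector genes and 5 of 8 amino acid genes.

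The arrays had been brought to the same distribution before deposition, with a median intensity of 10.7 to 10.8 on each. Values were compared as log2(intensity + 16) with limma over all 16927 kept probes, so a difference is on this scale and understates the change of dim probes. Embryos of equal replicate number deviated together, and the 36 arrays also fell into a set of numbers 1 to 6 and a set of numbers 7 to 12, which the labels do not explain. Each comparison was therefore also fitted with replicate number as a block, which took the median standard error of the members from 0.114 to 0.0677. The yolk sac markers Afp, Ttr, Apoa1 and 9 others, of which 11 had a probe and 7 were kept, summed to between 184 and 32701 per embryo, with group medians of 639 in Control, 792 in Ethanol and 571 in Nicotine. Of 10 placental and decidual markers 8 had a probe and 4 were kept, and their sum was 694 to 3320 in every embryo but Control 3, where it was 17285. Markers of embryonic tissue (10 of 12 with a probe, 8 kept) summed to between 25643 and 38661, and were read in every embryo. Of the marker genes, Cdx2, a tail bud factor, was the 1 past the threshold, at 1.32 for nicotine minus Control with replicate number as a block (blocked adjusted p 0.0334, and 0.294 without the block).

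No member of the stress responses passed the test after ethanol or nicotine. With ethanol 0 of 28 members had an adjusted p under 0.05, against 0% of all kept probes, and 1 had an unadjusted p under 0.05, against 1.05% of probes. With nicotine the count was 0 of 28 against 0.00591% of probes, and 2 members had an unadjusted p under 0.05, against 6.51%. Between ethanol and nicotine it was 0 of 28 against 0%, with 0 members and 4.93% of probes at the unadjusted level. Under the replicate block no member passed either, where 0%, 1.15% and 0.408% of probes passed in the same order, and with the set of numbers as the block the counts were again 0, where 0.0177% of probes passed with nicotine. The lowest blocked adjusted p among members was 0.990 for ethanol, 0.155 for nicotine and 0.311 between the treatments. At the unadjusted level the blocked fit held 2, 5 and 3 members, near the share of all probes at that level, which was 4.63%, 17.7% and 13.9%.

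The differences were small and within the spread between embryos. Ethanol minus Control lay between -0.19 and 0.29 over the 28 members, with a median of 0.03, and 18 were above Control, where 50.9% of all probes were above. Nicotine minus Control lay between -0.42 and 0.23, with a median of 0.02, and 16 were above Control against 51.4% of probes. The blocked 95% interval stayed within 0.5 on either side of 0 for 27 of 28 members with ethanol and for 27 with nicotine, so a change of that size was outside the interval for all but Trib3 and Calr respectively. In no comparison did the embryos of the groups stand apart for any member. The share of all probes that do so was not computed, so this is not read as a result about the members.

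**Figure D1:**
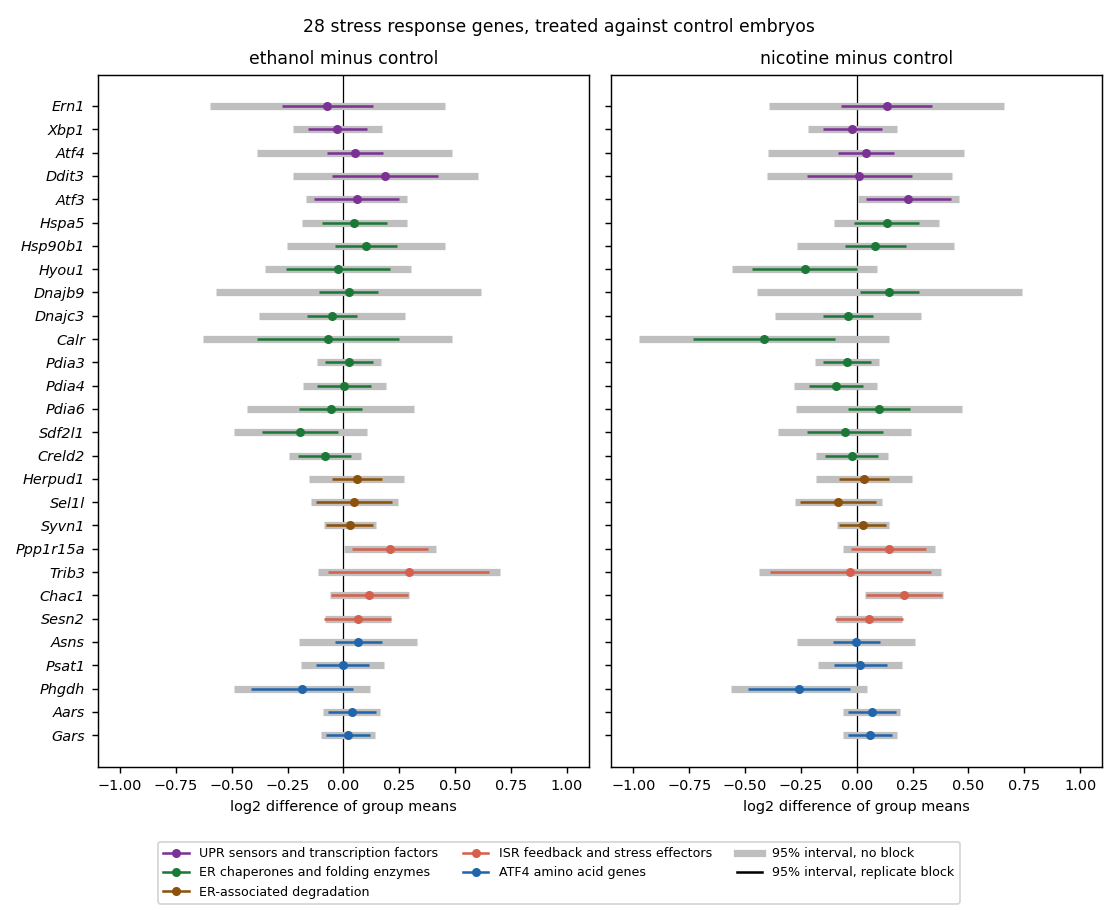
Mean log2 difference of treated minus Control embryos for each of the 28 kept members, coloured by role, with ethanol on the left and nicotine on the right (12 embryos a group). Grey bars are 95% intervals without a block and coloured bars 95% intervals with replicate number as a block; the differences run from -0.19 to 0.29 with ethanol and from -0.42 to 0.23 with nicotine.

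Among the sensors and transcription factors, Ern1 encodes the IRE1 nuclease and Xbp1 the factor whose mRNA that nuclease splices. Ern1 was -0.07 with ethanol and 0.13 with nicotine, and Xbp1 was -0.03 and -0.02. Without a block, neither gene's total RNA differed from Control beyond its error (SE 0.259 and 0.0986). With the replicate block the SE was 0.0988 for Ern1 and 0.0645 for Xbp1. The nicotine difference of Ern1 exceeded that SE but did not pass (blocked p 0.185 unadjusted and 0.502 adjusted). Ethanol minus nicotine was -0.21 for Ern1 (blocked p 0.0466 unadjusted and 0.350 adjusted), which did not pass either. Splice forms of Xbp1 were not analysed here. Atf4, the factor at the centre of the integrated stress response, ranged from 1597 to 4994 in Control embryos with a median of 2869, from 1643 to 4467 in Ethanol embryos with a median of 3126, and from 1865 to 4889 in Nicotine embryos with a median of 2915. The groups overlapped over nearly their whole range, and the differences were 0.05 and 0.04 (SE 0.215, or 0.0607 with the replicate block). ATF4 itself is set mainly by translation, which RNA does not read.

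Ddit3 encodes CHOP, the factor tied to cell death under lasting stress. It ranged from 70.8 to 265 in Control embryos (median 149), from 73.6 to 299.99 in Ethanol embryos (median 166) and from 59.99 to 339 in Nicotine embryos (median 149.6). The lowest embryo of each group was number 6, and the highest of all was Nicotine 12, followed by Ethanol 10. The difference was 0.19 with ethanol (SE 0.205), higher in 10 of 12 number pairs, and 0.01 with nicotine, higher in 6 of 12. Atf3, an early responder downstream of ATF4, had the largest positive member difference with nicotine, 0.23 (SE 0.111, adjusted p 0.755, blocked 0.186), higher in 10 of 12 pairs. Its intensity was 22.6 to 78.6 in Control (median 44.1), 37.7 to 76.0 in Nicotine (median 50.2) and 22.8 to 61.1 in Ethanol (median 46.8). The Nicotine group lacked the low values of the others but did not stand apart, and the difference was 0.44 in replicates 1 to 6 and 0.03 in 7 to 12. The ethanol difference of Atf3 was 0.06, and it was 0.34 in 1 to 6 and -0.22 in 7 to 12. In a limma test of that discrepancy between the sets, p was 0.00894 unadjusted and 0.9999 adjusted.

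The chaperones and folding enzymes gave no common direction: 5 of 11 were above Control with ethanol and 4 of 11 with nicotine, with medians of -0.03 and -0.04. Hspa5, the chaperone that holds the ER sensors silent and the usual marker of an unfolded protein response, read 50.7 to 103 in Control embryos (median 77.2), 53.6 to 121 in Ethanol embryos (median 83.6) and 49.7 to 112 in Nicotine embryos (median 95.7). The groups overlapped throughout. The Hspa5 probe was dim, with a mean of 83.7 against 5928 for Hsp90b1 and 7753 for Pdia3, though Hyou1 was lower at 69.8. How well this probe reads the gene was not tested. The differences of Hspa5 were 0.05 with ethanol and 0.13 with nicotine (SE 0.116), the blocked 95% intervals running from -0.10 to 0.19 and from -0.01 to 0.28. Hsp90b1, its partner GRP94, was 0.10 and 0.08 (SE 0.174). Dnajb9, a J-domain partner of BiP and a target of XBP1, was 0.02 and 0.15 (SE 0.293, or 0.0640 with the replicate block). With nicotine its blocked 95% interval ran from 0.01 to 0.28 and left out 0 (blocked p 0.0307 unadjusted and 0.232 adjusted). Dnajc3, the J-domain protein P58IPK, was -0.05 and -0.04.

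Calr, the calcium-binding lectin chaperone calreticulin, showed the largest difference of any member and comparison, and it did not pass. It read 482 to 1238 in Control embryos (median 752), 307 to 1120 in Ethanol embryos (median 746) and 139 to 1135 in Nicotine embryos (median 614). The lowest value was that of Nicotine 1, the embryo with the highest yolk sac marker sum, 32701, and the part of that tissue in the result was not tested. Nicotine minus Control was -0.42 (SE 0.275, adjusted p 0.924, blocked adjusted p 0.155), with Nicotine higher in 2 of 12 pairs, and was -0.24 when number 1 was left out. The difference was -0.86 in replicates 1 to 6 and 0.02 in 7 to 12. The test of that discrepancy gave 0.88 (SE 0.272) with an adjusted p of 0.445, so it was not shown to differ between the sets. In this test 0 of 28 members passed for either treatment, against 0% of probes, and 1 for each had an unadjusted p under 0.05, against 2.3% of probes with ethanol and 6.94% with nicotine.

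The disulfide isomerases Pdia3, Pdia4 and Pdia6, which make and shuffle disulfide bonds, lay between -0.09 and 0.10 in both comparisons with Control. Hyou1, the large chaperone GRP170, was -0.03 with ethanol and -0.23 with nicotine (SE 0.160), above Control in 3 of 12 nicotine pairs. Sdf2l1, an ER protein bound to chaperone complexes, had the lowest ethanol difference, -0.19 (SE 0.147, blocked p 0.0268 unadjusted and 0.990 adjusted). It read 334 to 672 in Control embryos (median 493) and 213 to 595 in Ethanol embryos (median 437), higher in Ethanol in 3 of 12 pairs. The groups overlapped. Creld2, a secreted ER stress marker, was -0.08 and -0.02 (SE 0.0797).

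The degradation genes had small differences. Herpud1 was 0.06 with ethanol and 0.03 with nicotine (SE 0.105), Sel1l, the adaptor of the HRD1 ligase, 0.05 and -0.08 (SE 0.0961), and Syvn1, the ligase itself, 0.03 and 0.03 (SE 0.0572). For Syvn1 the blocked 95% intervals ran from -0.08 to 0.13 in both comparisons, the narrow end of what these embryos can show.

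The feedback and stress effector genes of the integrated stress response were all 4 above Control with ethanol, with a median of 0.16, and none passed. Beside them, all 7 kept yolk sac markers were also above Control with ethanol (median 0.45) and all 4 kept placental and decidual markers were below (median -0.44), none of them past the threshold, and the part of those tissues in the result was not tested. Trib3, a pseudokinase that restrains ATF4 and CHOP, read 175 to 791 in Control embryos (median 329.9), 247 to 568 in Ethanol embryos (median 436) and 189 to 603 in Nicotine embryos (median 308). Control held both the lowest and the highest embryo, and the groups overlapped. The ethanol difference was 0.29 (SE 0.201), 0.04 in replicates 1 to 6 and 0.54 in 7 to 12, with Ethanol higher in 7 of 12 pairs, and the nicotine difference was -0.03. Ppp1r15a encodes GADD34, which returns eIF2 to its active form. It read 129 to 293 in Control (median 181), 166 to 279 in Ethanol (median 206) and 145 to 271 in Nicotine (median 192), which is 0.21 with ethanol (SE 0.101, unadjusted p 0.0472, blocked adjusted p 0.990, higher in 8 of 12 pairs) and 0.14 with nicotine. The lowest Control embryos lay below every Ethanol embryo, and the highest embryo of all was a Control.

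Chac1, which breaks down glutathione and is a target of ATF4, had the smallest unadjusted p of any member with nicotine. It read 27.4 to 43.2 in Control embryos (median 32.1), 27.8 to 54.4 in Ethanol embryos (median 36.01) and 26.4 to 63.5 in Nicotine embryos (median 38.5). The nicotine difference was 0.21 (SE 0.0868, unadjusted p 0.0196, adjusted p 0.590, blocked adjusted p 0.181), higher in 9 of 12 pairs, and the ethanol difference was 0.12. These values are close to the intensity limit of 32, where the added 16 compresses differences most. Sesn2, sestrin 2, a brake on mTORC1, was 0.06 and 0.05 (SE 0.0727).

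None of the amino acid genes under ATF4 passed, and their medians were 0.02 with each treatment. Asns, asparagine synthetase, read 2201 to 4296 in Control embryos (median 3238), 2490 to 4435 in Ethanol embryos (median 3266) and 2130 to 4413 in Nicotine embryos (median 3041). The groups overlapped almost fully, and the differences were 0.07 with ethanol and -0.00 with nicotine, the blocked 95% intervals running from -0.04 to 0.17 and from -0.11 to 0.10. Psat1, the second enzyme of serine synthesis, was -0.00 and 0.02 (SE 0.0922). Phgdh, which starts that pathway, was -0.18 with ethanol and -0.26 with nicotine (SE 0.150, nicotine blocked adjusted p 0.223), and its lowest embryo was again Nicotine 1 at 302, against a Control range of 642 to 1376. The tRNA synthetases Aars and Gars, for alanine and glycine, lay between 0.02 and 0.07 in both comparisons (SE 0.0623 and 0.0593).

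**Figure D2:**
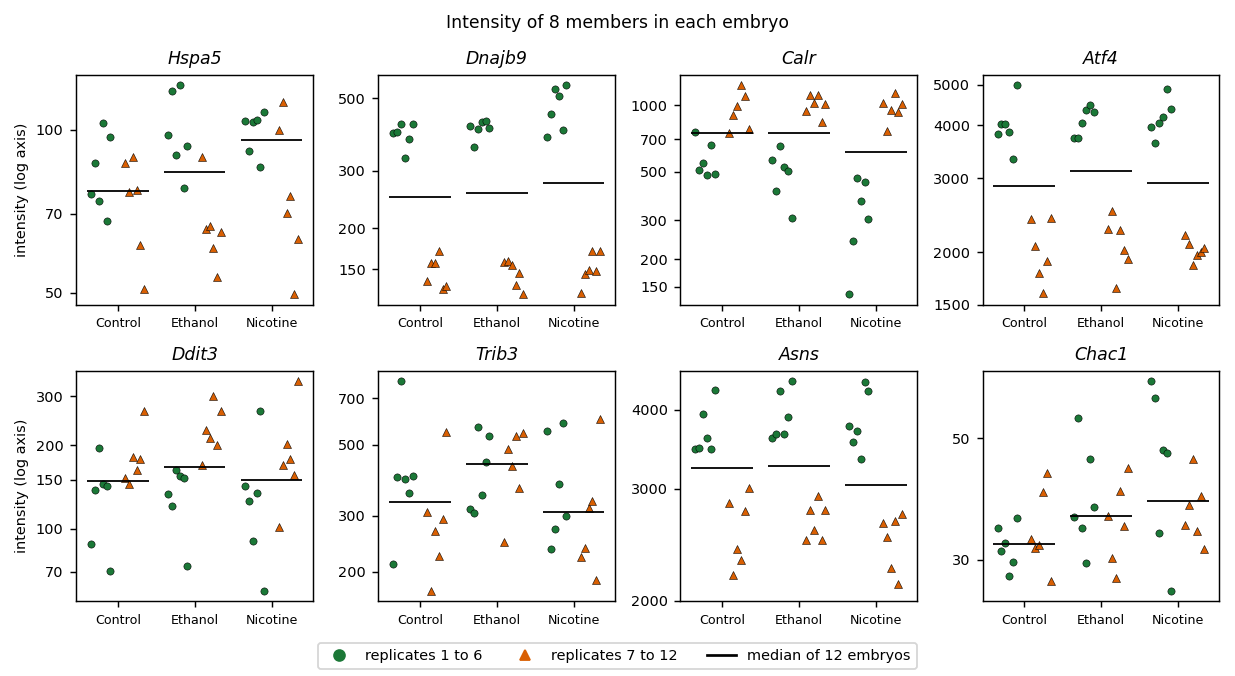
Intensity on a log axis of 8 members in each of the 36 embryos, by group, with circles for replicates 1 to 6 and triangles for 7 to 12. Black lines are group medians of 12 embryos. The sets stand apart for Dnajb9, Atf4 and Asns, while the treatment groups overlap in every panel.

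For some members the difference between the sets of replicate numbers was larger than any member's treatment difference. For others the gene's own largest treatment difference was the larger, among them Trib3, Ppp1r15a, Chac1, Phgdh and Atf3. Phgdh differed by 0.02 between the sets and by -0.26 with nicotine, and Atf3 by 0.02 and 0.23. The sets were recognised from the arrays themselves, so this is a description with no test. For 6 of the 28 members every embryo of 7 to 12 lay on one side of every embryo of 1 to 6, against 9.68% of all probes. Of these, 5 were lower in 7 to 12, where 7.53% of probes were: Dnajb9 by -1.40, Atf4 by -0.997, Pdia6 by -0.84, Hsp90b1 by -0.76 and Asns by -0.56. Dnajc3 was higher by 0.73, where 2.15% of probes were. All 6 kept the sign in each of the 3 groups. Dnajb9 read 328 to 548 in the 18 embryos of 1 to 6 (median 407) and 126 to 171 in the 18 of 7 to 12 (median 148). Atf4 read 3331 to 4994 (median 4048) and 1597 to 2508 (median 2036) in the same order. The gap was present in every group: Dnajb9 was lower by -1.30 in Control, -1.37 in Ethanol and -1.52 in Nicotine.

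Ern1 was lower by -1.14 and Calr higher by 1.12 in 7 to 12, both with some overlap, so the members did not shift one way: 15 were lower and 13 higher. In all, 11 of 28 members differed by more than 0.5 in size between the sets, where 24.1% of probes did, and the median size was 0.23 for members and 0.25 for all kept probes. Members with an ERSE went both ways, since Hsp90b1 and Pdia6 were lower while Dnajc3 was higher.

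The probes of a gene often did not follow each other between the sets. Of the 10 members with more than 1 kept probe, 6 had probes of opposite sign. Ddit3 was 0.56 by the probe that stands for the gene and -0.43 by the other, Pdia6 -0.84 and 0.24, and Asns -0.56 and 0.02. Atf4 was -0.997 and -0.09, Sel1l -0.22 and -1.25, and Gars 0.07 and 2.15. The second Gars probe read 5.98 to 30.1 in embryos 1 to 6 and 39.8 to 178 in 7 to 12. Dnajb9 had the closest pair, at -1.40 and -1.53. The widest spread among probes of a gene was 2.08 between the sets but 0.149 for ethanol and 0.259 for nicotine, where the treatment differences themselves were smaller, with medians of 0.03 and 0.02.

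**Figure D3:**
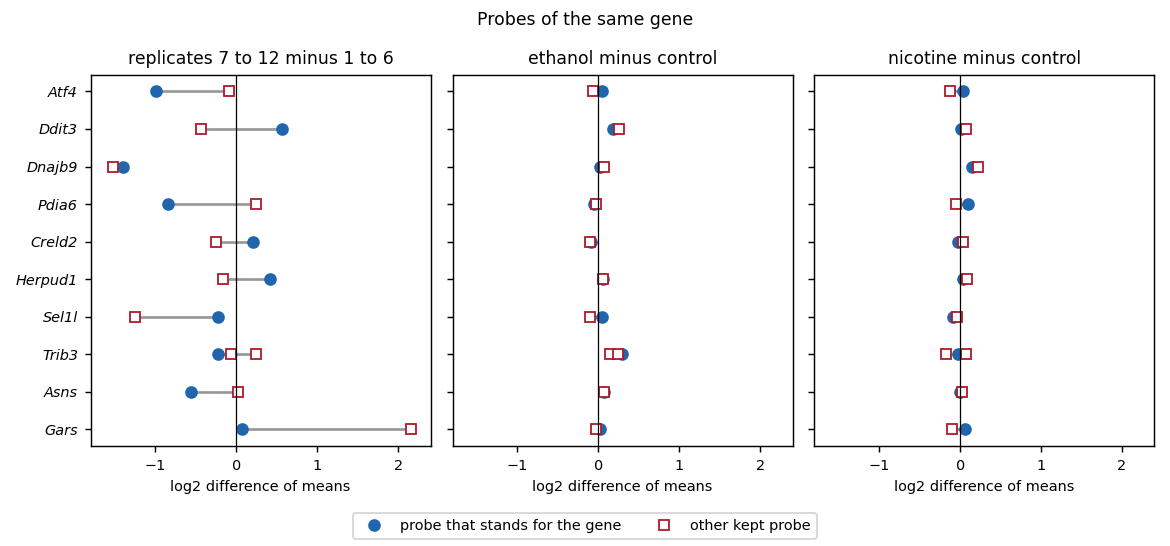
Log2 difference of means by each kept probe of the 10 members with more than 1, for replicates 7 to 12 minus 1 to 6, ethanol minus Control and nicotine minus Control on the same axis. Filled circles are the probe that stands for the gene and open squares its other probes, joined by a line. Probes of a gene are up to 2.08 apart between the sets and no more than 0.259 apart for a treatment.

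The 3 embryos with replicate number 6, 1 in each group, stood apart from the 15 of numbers 1 to 5 in several members, as they did in 9.35% of all probes upward and 9.92% downward. All 3 lay above all 15 for 5 members: Phgdh by 0.82, Pdia4 by 0.58, Xbp1 by 0.52, Pdia3 by 0.39 and Gars by 0.26. They lay below for Ddit3 by -0.91 and for Herpud1 by -0.31. Xbp1 read 3807, 3727 and 4777 in Control 6, Ethanol 6 and Nicotine 6, against 2405 to 3443 in the others. Ddit3 read 70.8, 73.6 and 59.99, against 88.1 to 265. Embryos of that number thus read high for Pdia3 and Pdia4 and low for Ddit3 in every group, and they are given apart in what follows.

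Relations between members across embryos were computed within each set, for pairs of a known regulator and target or of known co-regulated genes. Of 9 pairs listed, 8 could be computed, since Slc3a2 did not pass the filter and Slc7a5 had no probe, which made 16 relations. With embryos of a set taken as exchangeable 3 passed after adjustment, but same-number embryos go together, and with the mean of each number removed and values permuted within numbers 0 of 16 passed (exact permutation test, two-sided), with 3 at an unadjusted p under 0.05. That alternative was chosen after seeing the data. The strongest relation was that of Asns with Trib3 in replicates 7 to 12, with Pearson's r of 0.748 and Spearman's rho of 0.705 over 18 embryos (permutation test, two-sided, adjusted p 0.00832 and 0.0211), and r was 0.629 without the 2 embryos farthest from the Asns median. Within numbers it was 0.811 (exact permutation p 0.00587, adjusted p 0.0940), a relation as large as before that no longer passed. In replicates 1 to 6 the same pair gave r = 0.531 and rho = 0.575 (permutation adjusted p 0.0969 and 0.0547), and without number 6 r = 0.666 over 15 embryos (permutation adjusted p 0.0349) and rho = 0.618 (permutation adjusted p 0.0852), a setting also chosen after seeing the data. Within numbers of 1 to 6 it was 0.556 (exact permutation adjusted p 0.236).

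Hspa5 and Hsp90b1 in replicates 7 to 12 gave r = 0.635 and rho = 0.651 (permutation adjusted p 0.0252 and 0.0211), and 0.551 without the 2 farthest embryos. Within numbers r was 0.123 (exact permutation adjusted p 0.892), so this relation rested on differences between numbers. In 1 to 6 r was 0.489 and did not pass (permutation adjusted p 0.106), and within numbers it was 0.587 (exact permutation adjusted p 0.236). Atf4 and Asns gave r = 0.684 and rho = 0.661 in 1 to 6 (permutation adjusted p 0.0134 and 0.0211), 0.617 without the 2 farthest, and 0.5996 without number 6, where the adjusted p was 0.0768. Within numbers it was 0.596 (exact permutation adjusted p 0.553). In 7 to 12 the same pair gave r = 0.495 (permutation adjusted p 0.106). The pairs Hspa5 and Sdf2l1, Hspa5 and Creld2, Asns and Psat1, Chac1 and Ddit3, and Hspa5 and Asns passed in neither set. Hspa5, the marker of the ER pathway, and Asns, the marker of the ATF4 pathway, had r of 0.01 in 1 to 6 and -0.12 in 7 to 12. In all these pairs Hspa5 was read by its dim probe.

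The whole grid of members is given as a description with no test. Means of replicate numbers were not removed here, so differences between numbers count in these values, as they did for Hspa5 with Hsp90b1. Their part in the values of the classes was not tested. With group means removed, the median correlation of the 55 pairs of chaperones was 0.13 in replicates 1 to 6, 0.20 in 1 to 5 and 0.34 in 7 to 12, where 46 of the 55 were above 0. The median over the 7 measured members with an ERSE was 0.02, 0.16 and 0.40 in the same order. All of these but Syvn1 are also among the chaperones, so most of their pairs are the same and this is not a separate observation. Over all 28 members the median was 0.01, 0.06 and 0.01, and over 9683 genes it was near 0.00 in each. Among chaperones, Hyou1 with Sdf2l1 was high in each set, at 0.76 in 1 to 5 and 0.71 in 7 to 12. Pdia3 with Pdia4 had 0.81 in 1 to 5 and 0.51 in 7 to 12, and Dnajb9 with Pdia6 had 0.30 and 0.69. Negative values also occurred among chaperones. Hyou1 with Dnajb9 had 0.07 and -0.53, Pdia4 with Pdia6 0.04 and -0.43, and Hsp90b1 with Sdf2l1 -0.55 and 0.41, in the same order. For the ATF4 amino acid genes the median was 0.57 in 1 to 6 but 0.20 in 1 to 5 and 0.12 in 7 to 12, so it was lower without number 6. The other classes had medians near 0 or below: -0.09, -0.04 and -0.10 for the sensors and transcription factors, and 0.04, 0.01 and -0.19 for the feedback and stress effector genes. The degradation genes, with 3 pairs, had 0.22, -0.08 and 0.16. The 6 members with a CARE core had 0.01, -0.01 and -0.06.

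**Figure D4:**
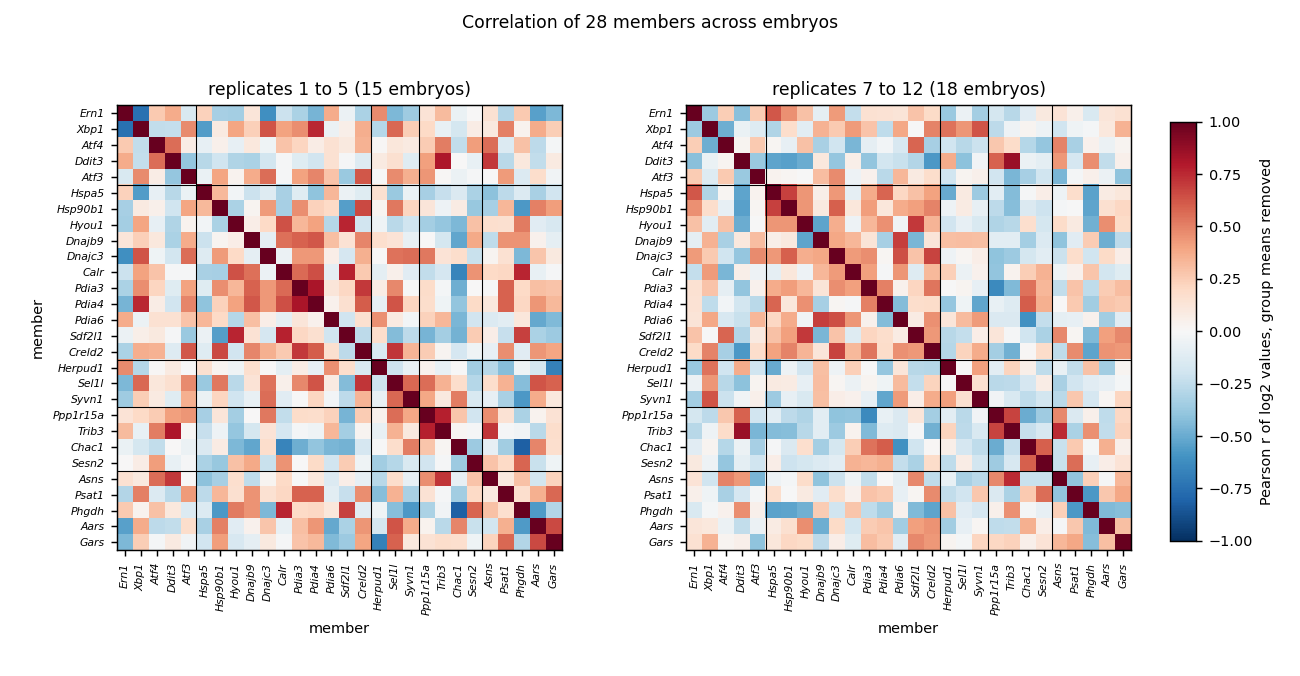
Pearson's r between the log2 values of each pair of the 28 members, group means but not replicate number means removed, over 15 embryos of replicates 1 to 5 (left) and 18 of 7 to 12 (right). Black lines separate the classes in the order of the text. The block of chaperones is mostly red on the right, with a median of 0.34, and Ddit3 with Trib3 is dark red in both.

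A group of 4 members, Ddit3, Trib3, Ppp1r15a and Asns, stood out of this grid; it was picked after its correlations were seen and is given with no test. Ddit3 with Trib3 had r = 0.812 in replicates 1 to 5 and 0.864 in 7 to 12, and 0.512 in 1 to 6, where number 6 had low Ddit3. Trib3 with Ppp1r15a had 0.779 and 0.677, and Trib3 with Asns 0.717 and 0.748, in 1 to 5 and 7 to 12. Ddit3 with Asns had 0.706 and 0.431, and was -0.137 in 1 to 6. Ddit3 with Ppp1r15a had 0.414 and 0.588, and Ppp1r15a with Asns 0.466 and 0.484. All 6 pairings of the Ddit3 and Trib3 probes lay between 0.474 and 0.812 in 1 to 5 and between 0.790 and 0.894 in 7 to 12. With the mean of each replicate number also removed, Ddit3 with Trib3 was 0.865 and 0.691, Trib3 with Asns 0.631 and 0.869, and Trib3 with Ppp1r15a 0.772 and 0.445. Ddit3 with Asns was then 0.788 and 0.439, Ddit3 with Ppp1r15a 0.455 and 0.441, and Ppp1r15a with Asns 0.176 and 0.342. Other members of the integrated stress response did not all go with Trib3. With only group means removed, Trib3 had 0.02 and -0.23 with Chac1, -0.01 and -0.16 with Sesn2, and 0.01 and -0.45 with Atf3. It had -0.01 and -0.32 with Psat1 and -0.27 and -0.24 with Aars. With Atf4 it had 0.51 and 0.18, with Phgdh -0.04 and 0.46, and with Gars 0.18 and 0.23.

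The embryos high in these genes came from every group. Control 3 had the highest Trib3 and Ppp1r15a of all 36 embryos, 791 and 293. Nicotine 5 was high in Ddit3 (265), Trib3 (585) and Asns (4413), and Nicotine 12 in Ddit3 (339), Trib3 (603) and Ppp1r15a (252). Ethanol 12 had 266 for Ddit3 and 544 for Trib3, and Ethanol 10 had 300 for Ddit3, 533 for Trib3 and 211 for Ppp1r15a. Control 12 had 265 for Ddit3, 549.98 for Trib3 and the highest Asns of 7 to 12, 3012. The 3 embryos of highest Trib3 in 7 to 12 were thus the 3 of number 12, and Control 3 and Ethanol 3 were both among the highest 3 for Trib3 and for Ddit3 in 1 to 6, so high readings partly went with the replicate number. Outside number 12, the highest Trib3 readings of 7 to 12 were those of Ethanol embryos. Ethanol 7 to 11 read 247, 486, 429, 533 and 366, against 175 to 307 in Control 7 to 11 and 189 to 333 in Nicotine 7 to 11. Control 3 was also the embryo with a yolk sac marker sum of 20377 and the placental sum of 17285, while Nicotine 5 had 745 and 1417, and Ethanol 12 had 746 and 1524. Without Control 3 the correlations in 1 to 5 were 0.782 for Ddit3 with Trib3, 0.639 for Trib3 with Ppp1r15a and 0.659 for Trib3 with Asns. The other 3 were 0.655 for Ddit3 with Asns, 0.216 for Ddit3 with Ppp1r15a and 0.302 for Ppp1r15a with Asns. The yolk sac sum had a correlation with Trib3 of 0.32 in 1 to 5, 0.05 there without Control 3 and 0.16 in 7 to 12. The placental sum had 0.55, 0.14 and 0.13 in the same order, and the part of these tissues in the pattern was not tested.

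**Figure D5:**
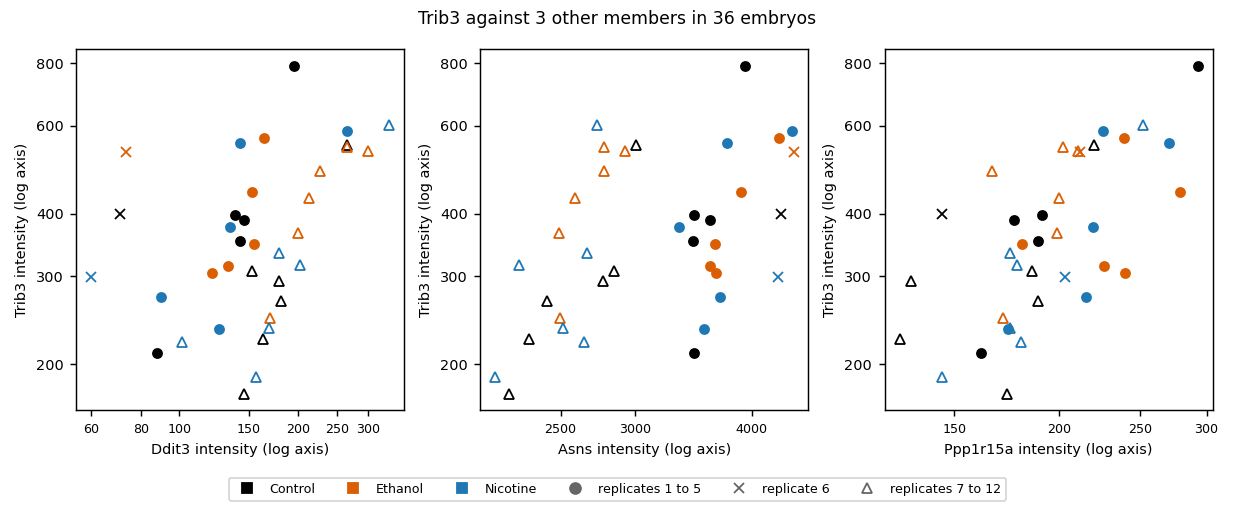
Trib3 intensity against that of Ddit3, Asns and Ppp1r15a in each of the 36 embryos, on log axes, coloured by group, with filled circles for replicates 1 to 5, crosses for number 6 and open triangles for 7 to 12. Embryos of all groups lie along each cloud, Asns has a separate cloud for each set, and the number 6 embryos lie to the left for Ddit3. Outside number 12, the highest Trib3 readings of 7 to 12 are those of Ethanol embryos.

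Genes of the same pathways outside the 38 did not pass either. Of 113 such genes 91 were kept, and 0 passed in any comparison with or without the block, with 57 of 91 above Control with ethanol and 46 with nicotine. The nearest was Stc2, stanniocalcin 2, a secreted glycoprotein induced through PERK and ATF4, at 0.43 with nicotine (SE 0.131, adjusted p 0.286, blocked adjusted p 0.0645) and 0.12 with ethanol. Among the 14 other regulators kept, 12 were above Control with ethanol and 6 with nicotine, and the smallest p were those of Cebpb at 0.11 with ethanol and, after Stc2, of the eIF2 kinase Eif2ak2 at -0.11 with nicotine. Of 14 other ATF4 targets for amino acid supply, 11 were above Control with ethanol and 10 with nicotine. The neutral amino acid carrier Slc1a4 was 0.14 and 0.17 (SE 0.0637, adjusted p 0.502 with nicotine), and the carrier Slc38a2 was -0.21 with nicotine. Of 16 other tRNA synthetases, 12 were above Control in each comparison, and the smallest p were those of Iars at 0.10 with ethanol and Wars at 0.08 with nicotine.

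On the side of the ER itself, 6 of 15 other folding and oxidation genes were above Control with ethanol and 5 with nicotine, with Txndc5, an isomerase, at 0.11 with ethanol and Dnajc1, a J-domain protein of the ER membrane, at -0.24 with nicotine. Of 12 other degradation genes the counts were 6 and 3, with Derl2, a derlin of the export channel, at -0.17 with ethanol and Os9, a lectin that hands on misfolded glycoproteins, at -0.14 with nicotine. Of 20 translocation genes 10 were above Control in each, and Sec61a1, the pore of the channel, was 0.10 and 0.11. Sec63, its partner, was 0.09 with ethanol, and Srprb, a subunit of the docking receptor, was -0.13 with nicotine. None of these passed the test.

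The other genes of smallest p in these lists were, with ethanol, the eIF2 kinase Eif2ak1 at 0.07, Dnajc10 at 0.07, Nploc4 at 0.11, the tRNA exporter Xpot at 0.10 and Nars at 0.07. With nicotine they were Txndc11 at 0.16, Nploc4 at 0.13 and Sars at 0.10. For ethanol minus nicotine, Stc2 was -0.31, Eif2ak2 0.19, Txndc11 -0.21, Fkbp11 -0.21 and Hars -0.22, and Os9, Derl2, Ssr1, Sec63, Gpt2, Slc38a2 and Sars lay between -0.12 and 0.15. The count of the 91 above Nicotine was 52, and the adjusted p was 0.862 or more without the block in this last comparison.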

How the data were processed

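The authors deposited 1 intensity per probe and embryo on a linear scale, and the submitters' processing notes name GenomeStudio 1.9.0. How background and normalization were handled is not given in the sources used here. A file of signals before normalization has 72 columns that match no sample label and were not used, so a background correction of its own could not be run. The deposited values of 45281 probes were taken as log2(intensity + 16), and the 16927 probes reaching an intensity of 32 on at least 12 arrays were kept. The probe with the highest mean stood for its gene, named from the platform annotation updated through RefSeq synonyms. The members and the gene lists were chosen with earlier results of these data known. All kept members are named, and of the other lists the genes past the threshold or the 2 of smallest p.

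Groups were compared with limma 3.58.1 in R 4.3.3 (lmFit and eBayes, a mean per group, 33 residual degrees of freedom), two-sided, with Benjamini-Hochberg adjustment over all kept probes and a threshold of 0.05. The alternative with replicate number as a block has 22. Same-number embryos of the 3 groups correlated above 0.1 in all 36 pairs after group means were removed (mean 0.589, lowest 0.243). Embryos of other numbers in the same set correlated at a mean of 0.474, so passing 0.1 does not by itself show pairing by number. The numbers were taken as pairs in the blocked alternative. Relations used permutation tests with 100000 resamples in scipy 1.17.1. In a test on simulated data of nicotine against control with 16927 probes, the fit without block recovered 2% of probes changed by 0.2, 38% of those changed by 0.4 and 88% of those changed by 1, and the blocked fit 16%, 66% and 96%. The simulated embryos of equal number shared the difference between the sets and nothing else. The blocked shares therefore do not describe the blocked fit on these data, where same-number embryos go together. Most member differences are no larger than the smallest simulated size, where the fit without block would call few changes. Arrays have no read depth, and their number limits precision.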

Additional observations from a re-analysis of the deposited data

How the results depend on the processing

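The count of members past the threshold was 0 in each of the 3 comparisons under all 34 alternatives, which changed the block, pseudocount, intensity filter, variance model, probe choice and embryos left out. The lowest adjusted p among them was 0.732 for ethanol, 0.0805 for nicotine (replicate block without number 8) and 0.170 between treatments. With the replicate block, the paired analysis, 0 members passed in each comparison, and the interaction stayed at 0 under all 13 alternatives. Over all probes, nicotine minus Control gave 1 call without a block, 3 with the set as a block and 194 with the replicate block, none of them a member; the cause was not tested. Leaving out Control 3 or Nicotine 1, chosen after seeing the data, gave 0 members as well.

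Of 59 member differences recomputed, none had an adjusted p under 0.05 in any setting, and the sign changed in some of those near 0. With the mean of all kept probes of a gene, ethanol minus Control turned to -0.0066 for Atf4, -0.0265 for Sel1l and -0.00106 for Gars, and nicotine minus Control to -0.0399 for Atf4, 0.0094 for Creld2, 0.00789 for Asns and -0.0183 for Gars. With 1 number left out at a time, ethanol minus Control ran from -0.00020 to 0.122 for Atf3, -0.0066 to 0.0544 for Dnajb9, -0.0039 to 0.0450 for Gars, -0.0914 to 0.0047 for Hyou1, -0.0447 to 0.0246 for Pdia4 and -0.0320 to 0.0254 for Psat1. Nicotine minus Control ran from -0.0347 to 0.0312 for Asns, -0.0048 to 0.0662 for Atf4, -0.0598 to 0.0030 for Creld2, -0.0623 to 0.103 for Ddit3, -0.00052 to 0.0487 for Psat1, -0.0952 to 0.0145 for Sdf2l1, -0.00015 to 0.0463 for Syvn1, -0.152 to 0.103 for Trib3 and -0.0512 to 0.0083 for Xbp1. The cause was not tested. The count of relations past the threshold was 3 with another pseudocount, with group means removed and without number 6, but 0 with the replicate block (values permuted within numbers, chosen after seeing the data), where differences between numbers no longer count; leaving out number 6 replaced Atf4 with Asns by Asns with Trib3 in replicates 1 to 6. Ern1, Chac1 and Atf3 were read near the intensity limit, and 8 members had no probe above it on 12 arrays.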
